A study of Mus musculus with 8 samples.

Results

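Collagen chain genes were followed in the mouse aorta. They were taken as the rows of the count table whose symbol is Col, a number, the letter a and a number, with at least 10 counts over the 8 libraries. The table held 44 such rows among 35896 genes, and all 44 reached the minimum, the lowest being Col9a2 with 13 counts. They comprise 11 fibrillar, 6 basement membrane (type IV) and 27 other collagen genes.

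RNA was sequenced from a portion of the aorta, with all its cell types, of 16 male C57BL6 mice, aged 11 weeks at the start, in 4 groups of 2 libraries, and each library pooled 2 mice. In AngII, mice received angiotensin II, the effector peptide of the renin-angiotensin system, at 2.8 mg/kg/d from an osmotic minipump and were sacrificed at the end of the 2 weeks of infusion. AngII+2W and AngII+3W received the same infusion and were studied 2 and 3 weeks after its end, and CTRL were untreated littermates of the same age. The study took control mice at each of these times, and the labels do not say which of them the CTRL libraries hold. Total counts were 18130441 to 21498200 per library, so that 3 counts, taken as the floor of detection, correspond to 0.140 to 0.165 CPM (counts per 1000000, on library sizes normalized by the TMM method in all other values). The 5 smooth muscle markers searched (Acta2, Tagln, Cnn1, Myh11 and Smtn) were above 0 in each library of this tissue. The AngII+3W replicate 1 library stood apart, with 2637 CPM summed over 8 skeletal muscle markers against 5.53 to 74.3 CPM in the other libraries. The collagen sums and fold changes of AngII+3W are therefore also given without it.

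Collagens are secreted proteins built of chains that wind around each other into a rope-like helix. Fibrillar collagens (types I, III, V and XI among them) assemble into the tension-bearing fibrils of the adventitia and media, whereas type IV chains form the sheet-like network of basement membranes around smooth muscle cells and under the endothelium. The other classes coat fibrils, form beaded filaments or short-chain networks, carry large sugar chains in basement membrane zones, or remain anchored in the cell membrane.

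In AngII, the fibrillar genes Col1a1, Col3a1, Col5a2, Col5a3 and Col11a1 rose against CTRL, as did the fibril-coating Col12a1 and Col16a1, the short-chain Col8a1 and Col8a2, the beaded filament Col6a3 and Col6a5, and Col28a1, while Col4a6 and Col19a1 fell. The largest changes among the collagens past the threshold were those of Col11a1, Col8a1 and Col1a1, and the most abundant were Col3a1 and Col1a1. Of the 39 collagen genes that passed the filter on low counts, 12 rose and 2 fell in AngII at an FDR below 0.05 (quasi-likelihood F test of edgeR, Benjamini-Hochberg adjusted for the 17182 genes tested), against 2.90% of all genes tested that were higher and 2.20% that were lower. By class, 5 of 10 fibrillar genes rose, 1 of 6 basement membrane genes fell, and 7 of 23 other genes rose and 1 fell. The median log2 fold change was 1.96 in the fibrillar, -0.60 in the basement membrane and 0.79 in the other class, and -0.0085 over all genes tested. The number of calls depended on the libraries in the fit. It fell, in some fits to none, when a CTRL, AngII or AngII+2W library was left out, and rose when either AngII+3W library was. With 1 library left out, the class medians ranged from 1.37 to 2.29 in the fibrillar, -0.91 to -0.085 in the basement membrane and 0.52 to 0.96 in the other class. DESeq2 on all libraries called 18 collagen genes, beside 1551 over all genes.

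**Figure D1:**
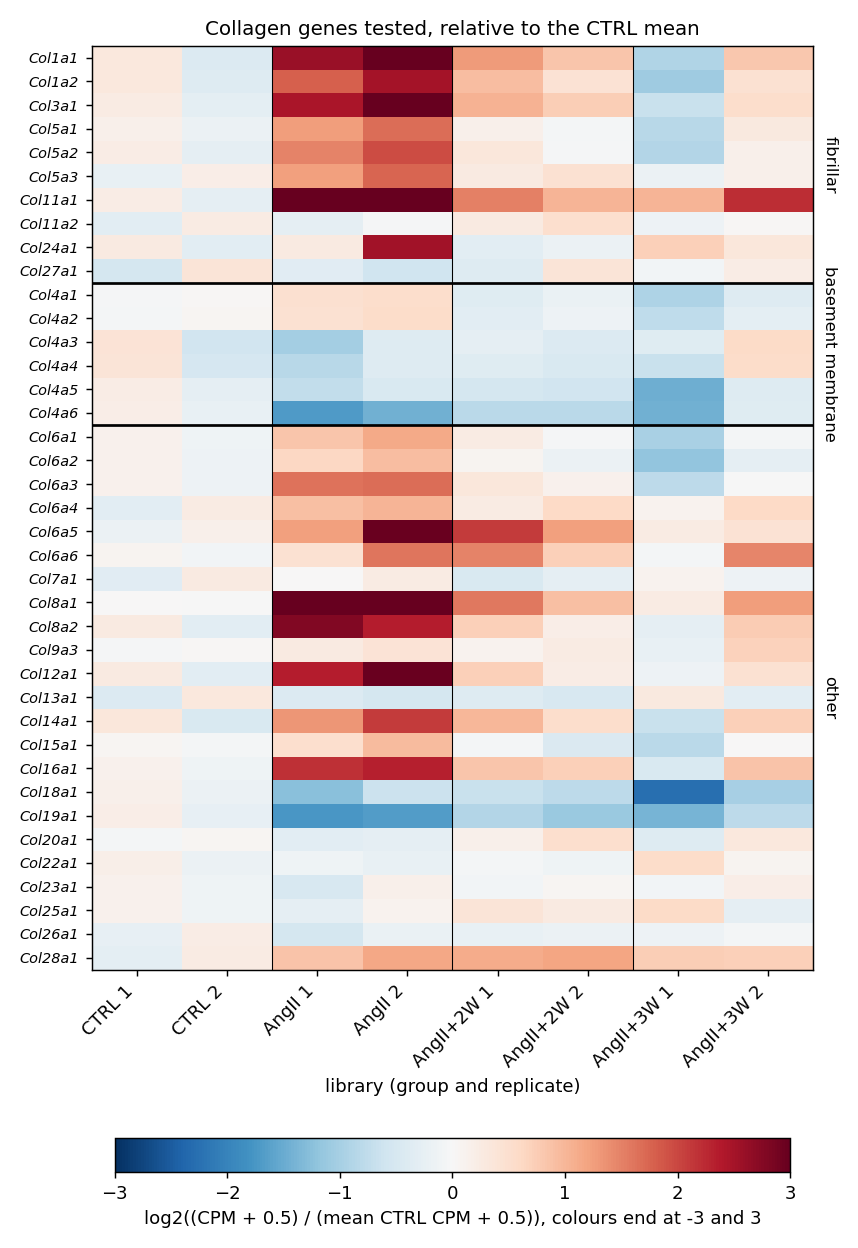
Level of each of the 39 collagen genes tested (rows, by class) in each of the 8 libraries (columns), as log2 of CPM plus 0.5 over the CTRL mean plus 0.5, with colours ending at -3 and 3. Most fibrillar rows are red in both AngII libraries, the Col4a5, Col4a6 and Col19a1 rows are blue there, and AngII+3W replicate 1 is below replicate 2 in most rows.

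The promoters of 3 collagens from different places in the matrix that rose in AngII are shown here, because they moved in the same direction. They are the RefSeq sequences (GRCm38.p6) of the 150 bases before the gene start, 5′ to 3′ on the strand of the gene, of the fibrillar genes Col3a1 and Col11a1 and the short-chain gene Col8a1. Capitals mark the motifs searched on both strands, the CCAAT box (CCAAT, or ATTGG on the other strand), the TATA box (TATAAA), the GC box (GGGCGG, or CCGCCC) and the AP-1 motif (TGANTCA), which do not overlap each other. The gap between Col4a4 and Col4a3 is shown as the shared start region of a divergent type IV pair.
Col3a1, chr1:45311388-45311537: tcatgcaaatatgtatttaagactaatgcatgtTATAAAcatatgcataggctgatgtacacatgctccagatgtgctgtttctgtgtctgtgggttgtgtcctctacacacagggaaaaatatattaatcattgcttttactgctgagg
Col11a1, chr3:114030390-114030539: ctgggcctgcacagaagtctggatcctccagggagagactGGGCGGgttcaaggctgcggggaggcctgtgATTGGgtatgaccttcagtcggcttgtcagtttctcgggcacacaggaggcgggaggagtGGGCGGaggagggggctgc
Col8a1, chr16:57754738-57754887: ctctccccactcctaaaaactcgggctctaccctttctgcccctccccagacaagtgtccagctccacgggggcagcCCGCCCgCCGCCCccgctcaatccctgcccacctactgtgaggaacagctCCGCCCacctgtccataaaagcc
Col4a4 to Col4a3, chr1:82586850-82586920: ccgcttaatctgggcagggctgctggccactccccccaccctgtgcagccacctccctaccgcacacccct
Within these windows, Col3a1 has the TATA box motif and no GC box, Col11a1 has GC boxes and a CCAAT box, Col8a1 has GC boxes alone, and the gap has none of the motifs. These, and those counted next, are matches of letters on either strand at any distance from the start within the window. Promoters of 35 of the 44 collagen genes were in the table. Over 250 bases before the start, a GC box was found in 21 of 35 (32.7% of all 32851 promoters), a CCAAT box in 12 (33.8%), a TATA box in 5 (12.4%) and the AP-1 motif in 1 (6.75%). Of the 9 genes higher in AngII with an entry, 6 had a GC box, 3 a CCAAT box, 1 a TATA box and 0 the AP-1 motif.

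Of the fibrillar genes, Col3a1 (chromosome 1, 45311538 to 45349706, forward strand, GRCm38), the chain of type III collagen of distensible tissues, had 1818 and 1246 CPM (CTRL), 8392 and 13397 CPM (AngII), 3143 and 2546 CPM (AngII+2W) and 959 and 2207 CPM (AngII+3W). Both AngII libraries lay above all others, with a log2 fold change against CTRL of 2.83 (SE 0.455, FDR 0.0186). Col1a1 (chromosome 11, 94936224 to 94953042, forward strand), the major chain of type I collagen, had 1359 and 828 CPM (CTRL), 6639 and 11178 CPM (AngII), 2651 and 1939 CPM (AngII+2W) and 589 and 1921 CPM (AngII+3W). Its AngII values were again the highest, with a log2 fold change of 3.03 (SE 0.585, FDR 0.0322). Its partner chain Col1a2 (chromosome 6, 4504814 to 4541544, forward strand) had 1761 and 1081 CPM (CTRL), 4891 and 8011 CPM (AngII), 2716 and 1908 CPM (AngII+2W) and 676 and 1957 CPM (AngII+3W). Its log2 fold change, 2.18 (SE 0.53, FDR 0.060), did not pass the threshold, although no AngII value overlapped with the other groups.

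Col11a1 (chromosome 3, 114030540 to 114220718, forward strand), a minor fibril chain best known from cartilage that can also join type V chains, was low in CTRL. It had 1.22 and 0.706 CPM (CTRL), 37.7 and 68.4 CPM (AngII), 3.69 and 2.47 CPM (AngII+2W) and 2.47 and 6.34 CPM (AngII+3W). The AngII values were the highest by a wide margin, with a log2 fold change of 5.78 (SE 0.566, FDR 0.00571), the group means being 0.962 ± 0.362 CPM and 53.1 ± 21.7 CPM (SD, n = 2). The 7 cartilage markers searched summed to 20.3 and 14.6 CPM (CTRL), 34.7 and 36.2 CPM (AngII), 27.4 and 22.1 CPM (AngII+2W) and 12.9 and 25. CPM (AngII+3W), highest in both AngII libraries, at 2.03 times CTRL. Of these, 3 were tested with a median log2 fold change of 1.06, and 0 were called by edgeR. At an unadjusted p below 0.05, 2 (Acan and Epyc) were higher, beside 1877 of all 17182 genes tested. Matn1 was at 0 in 7 of 8 libraries. The part of these markers in the change of Col11a1 was not tested. Col2a1, the chief fibrillar chain of cartilage, had 59 counts in the 8 libraries and was not tested.

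Type V collagen starts and limits the growth of type I fibrils. Col5a3 (chromosome 9, 20770050 to 20815067, reverse strand) had 61.5 and 82.7 CPM (CTRL), 169 and 244 CPM (AngII), 86.4 and 99.4 CPM (AngII+2W) and 63.9 and 80.7 CPM (AngII+3W). In AngII its log2 fold change was 1.52 (SE 0.231, FDR 0.0168) and no AngII value overlapped with another group. Col5a2 (chromosome 1, 45374321 to 45503282, reverse strand) had 306 and 215 CPM (CTRL), 728 and 1006 CPM (AngII), 327 and 253 CPM (AngII+2W) and 142 and 289 CPM (AngII+3W), with a log2 fold change in AngII of 1.73 (SE 0.358, FDR 0.0379) and likewise no overlap. The log2 fold change of Col5a1 was 1.48 (FDR 0.0589) and missed the threshold. Of the remaining fibrillar genes, Col11a2 had -0.16 (FDR 0.777) and Col27a1 -0.46 (FDR 0.52). Col24a1 had 94 counts in AngII replicate 2 against 10 in replicate 1, and its value of 2.78 (FDR 0.15) rests on that library.

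Of the basement membrane genes, Col4a6 passed the threshold. Col4a1 (chromosome 8, 11198423 to 11312826, reverse strand) and Col4a2 (chromosome 8, 11312805 to 11449287, forward strand), whose products form the common type IV network, start head to head with overlapping first bases. Col4a1 had 1399.8 and 1466 CPM (CTRL), 1984 and 2053 CPM (AngII), 1117 and 1242 CPM (AngII+2W) and 756 and 1088 CPM (AngII+3W), and Col4a2 had 875 and 951 CPM (CTRL), 1248 and 1345 CPM (AngII), 734 and 819.8 CPM (AngII+2W) and 539 and 748 CPM (AngII+3W). Both AngII values were above both CTRL values for each gene, but neither passed the test, Col4a1 at 0.49 (FDR 0.236) and Col4a2 at 0.51 (FDR 0.197) on the log2 scale. Col4a6 (chromosome X, 141165403 to 141474076, reverse strand), which with Col4a5 belongs to the network of smooth muscle basement membranes, had 204 and 153 CPM (CTRL), 54.9 and 65.1 CPM (AngII), 102 and 102 CPM (AngII+2W) and 65.1 and 139 CPM (AngII+3W). All infused libraries lay below both CTRL libraries, the AngII values and AngII+3W replicate 1 were the lowest, and the log2 fold change in AngII was -1.57 (SE 0.327, FDR 0.0389).

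Its head-to-head neighbour on the X chromosome, Col4a5 (chromosome X, 141475385 to 141689234, forward strand, with starts 1309 bases apart), had 270.5 and 190.2 CPM (CTRL), 137 and 167 CPM (AngII), 161 and 155 CPM (AngII+2W) and 82.9 and 177 CPM (AngII+3W), and its log2 fold change in AngII was -0.60 (FDR 0.377), past no threshold although all infused libraries lay below both CTRL libraries. Col4a3 and Col4a4, best known from kidney basement membranes, start 72 bases apart on chromosome 1. On the log2 scale they stood at -0.68 (FDR 0.418) and -0.59 (FDR 0.494), past no threshold. The class median therefore lies below 0 while the summed level does not, because Col4a1 and Col4a2 hold most of the counts. The median was -0.085 without CTRL replicate 1 and -0.38 without AngII replicate 1. Beside the fall of Col4a6, the 5 smooth muscle markers summed to 8895 and 6931 CPM in CTRL and 1596 and 2039 CPM in AngII. Of these markers, 4 of 5 were called lower, against 2.20% of all genes tested. In bulk tissue, fewer cells of a type and less RNA per cell cannot be told apart, and the part of these markers in the result was not tested.

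Col8a1 (chromosome 16, 57624258 to 57754737, reverse strand) and Col8a2 (chromosome 4, 126286793 to 126314330, forward strand) encode the chains of type VIII collagen, a short-chain network known from the vessel wall. Col8a1 had 16.2 and 15.8 CPM (CTRL), 273 and 231 CPM (AngII), 49.1 and 30.2 CPM (AngII+2W) and 19.1 and 38.6 CPM (AngII+3W). Its AngII values did not overlap with any other, with a log2 fold change of 3.98 (SE 0.373, FDR 0.0053), from 16. ± 0.296 CPM to 252 ± 29.7 CPM (SD, n = 2). Col8a2 had 3.95 and 2.45 CPM (CTRL), 24.7 and 18.4 CPM (AngII), 5.55 and 3.76 CPM (AngII+2W) and 2.58 and 5.75 CPM (AngII+3W), with a log2 fold change of 2.75 (SE 0.417, FDR 0.0165) and AngII values above all others.

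Collagens that coat fibrils (FACIT) had 2 genes higher and 1 lower of 7 tested. Col12a1 (chromosome 9, 79598991 to 79718831, reverse strand), which links fibrils to the surrounding matrix, had 54.8 and 36.7 CPM (CTRL), 236 and 359.6 CPM (AngII), 75.7 and 53.7 CPM (AngII+2W) and 40.8 and 63.4 CPM (AngII+3W), with 2.70 (SE 0.333, FDR 0.0097) on the log2 scale in AngII. Col16a1 (chromosome 4, 130047840 to 130099283, forward strand), a minor fibril-associated chain, had 31.8 and 26.6 CPM (CTRL), 135 and 149 CPM (AngII), 52.6 and 48.4 CPM (AngII+2W) and 21. and 53.3 CPM (AngII+3W), with 2.29 (SE 0.373, FDR 0.0193). In both genes the AngII values lay apart from all others. Col14a1 (chromosome 15, 55307750 to 55520803, forward strand) had 294 and 167 CPM (CTRL), 575 and 982 CPM (AngII), 458 and 331 CPM (AngII+2W) and 146 and 378 CPM (AngII+3W), and its log2 fold change of 1.75 (FDR 0.0884) missed the threshold. Col19a1 (chromosome 1, 24261890 to 24587472, reverse strand), a rare chain of basement membrane zones, was lower instead, with 12.4 and 8.89 CPM (CTRL), 2.81 and 2.99 CPM (AngII), 5.6 and 4.62 CPM (AngII+2W) and 3.71 and 5.91 CPM (AngII+3W). Its log2 fold change was -1.87 (SE 0.288, FDR 0.017), and the AngII values were the lowest.

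All 6 beaded filament (type VI) genes had a log2 fold change above 0 in AngII and 2 passed the threshold. Col6a3 (chromosome 1, 90765923 to 90843971, reverse strand) had 403 and 332 CPM (CTRL), 1145 and 1182 CPM (AngII), 463 and 403 CPM (AngII+2W) and 215 and 366 CPM (AngII+3W). Its AngII values stood above all others, with a log2 fold change of 1.66 (SE 0.257, FDR 0.0172). Col6a5 (chromosome 9, 105856078 to 105960643, reverse strand) passed at 2.42 (SE 0.547, FDR 0.0492). It had 7.11 and 9.13 CPM (CTRL), 19.8 and 67.1 CPM (AngII), 36.5 and 19.9 CPM (AngII+2W) and 9.73 and 11.2 CPM (AngII+3W). CTRL and AngII did not overlap, but the AngII libraries differed widely and both AngII+2W values lay between them. The log2 fold change of Col6a5 in AngII was 3.05 without AngII replicate 1 and 1.29 without AngII replicate 2. Col6a5 and Col6a6 share 572 bases at 96.9% identity, so the division of reads between them is uncertain. Col6a1 had 1.0 (FDR 0.0992) and Col6a2 0.79 (FDR 0.179).

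Of the remaining genes, Col28a1 (chromosome 6, 7997808 to 8192617, reverse strand), a chain with von Willebrand A domains, had 4.58 and 6.87 CPM (CTRL), 10.7 and 13.4 CPM (AngII), 13.1 and 13.7 CPM (AngII+2W) and 9.89 and 9.78 CPM (AngII+3W). All 6 libraries of infused mice lay above both CTRL libraries, and the log2 fold change in AngII was 1.07 (SE 0.222, FDR 0.0388). Col18a1 (chromosome 10, 77052178 to 77166548, reverse strand), the basement membrane zone collagen from which endostatin is cut, had 859.8 and 684 CPM (CTRL), 323 and 497 CPM (AngII), 486 and 445 CPM (AngII+2W) and 161 and 389 CPM (AngII+3W). All infused libraries lay below CTRL, but the log2 fold change of -0.91 (FDR 0.245) in AngII did not pass. Its relative Col15a1 had 309 and 287 CPM (CTRL), 426 and 577 CPM (AngII), 284 and 221 CPM (AngII+2W) and 171 and 299.6 CPM (AngII+3W) and a log2 fold change of 0.75 (FDR 0.184). Per kilobase of the longest transcript, where genes can be set beside each other, the mean levels in CTRL were 275 for Col3a1, 266 for Col1a2, 217 for Col4a1 and 184 for Col1a1 (CPM per kilobase), whereas those in AngII were 1958, 1206, 305 and 1502. The order of these genes in CTRL differed between its libraries and depends on the transcript length used. The transmembrane genes tested had log2 fold changes in AngII of -0.56 (FDR 0.46) for Col13a1, -0.13 (FDR 0.838) for Col23a1 and -0.10 (FDR 0.93) for Col25a1. The low members Col6a4, Col7a1, Col9a3, Col20a1, Col22a1 and Col26a1 had 0 to 18. CPM over all libraries and -0.38 to 2.50 of log2 fold change in AngII, with FDR values of 0.195 to 0.823. Col6a6 had 1.17 (FDR 0.283). The 5 genes not tested were Col2a1, Col9a1, Col9a2, Col10a1 and Col17a1, with 13 to 59 counts each over the 8 libraries.

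**Figure D2:**
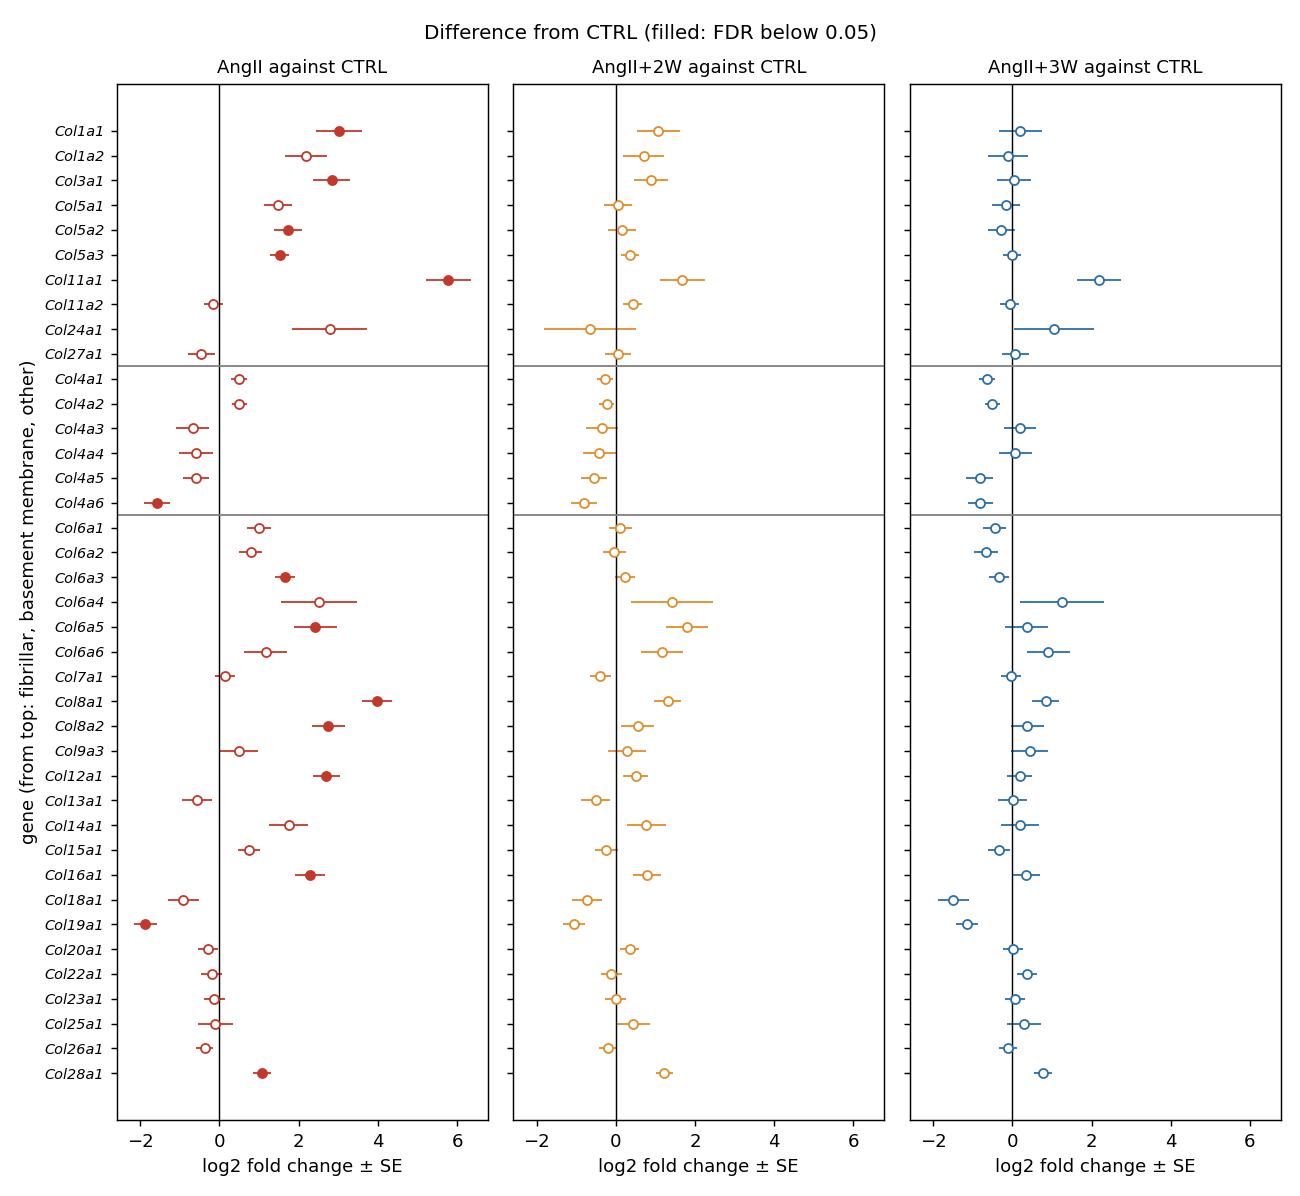
Log2 fold change against CTRL (horizontal axis, ± SE) of each collagen gene tested (rows, by class) in AngII, AngII+2W and AngII+3W, from edgeR, with filled points for an FDR below 0.05. There are 14 filled points in the AngII panel and 0 in the others.

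Summed over the class, the fibrillar genes had 5881 and 3990.0 CPM (CTRL), 22008 and 35396 CPM (AngII), 9507 and 7323 CPM (AngII+2W) and 2786 and 7138 CPM (AngII+3W), so that the means of the 3 infused groups, in the order given, were 5.82, 1.71 and 1.01 times that of CTRL. The basement membrane genes had 2836 and 2806 CPM (CTRL), 3460.3 and 3682 CPM (AngII), 2167 and 2367 CPM (AngII+2W) and 1487 and 2251 CPM (AngII+3W), or 1.27, 0.804 and 0.663 times CTRL. The other class had 2802 and 2259.8 CPM (CTRL), 4362 and 5585 CPM (AngII), 2802 and 2288 CPM (AngII+2W) and 1188 and 2346 CPM (AngII+3W), or 1.97, 1.01 and 0.698 times CTRL. Without AngII+3W replicate 1 the values of AngII+3W were 1.45 times CTRL in the fibrillar, 0.798 in the basement membrane and 0.927 in the other class, and without replicate 2 the fibrillar value was 0.564. The fibrillar share of all collagen counts averaged 47.6% ± 4.94 (SD, n = 2) for CTRL against 76.5% ± 3.87 for AngII, and was 63.4% ± 3.21 for AngII+2W and 55.9% ± 6.94 for AngII+3W. In AngII+3W replicate 2 alone it was 60.8% (95% Wilson interval 60.6 to 61.0, for counting error only). Col1a1, Col1a2 and Col3a1 together held 38.9% ± 5.68 of collagen counts for CTRL and 69.9% ± 4.37 for AngII. These sums are described without a test, since 2 libraries against 2 cannot give an exact permutation p below 0.333.

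**Figure D3:**
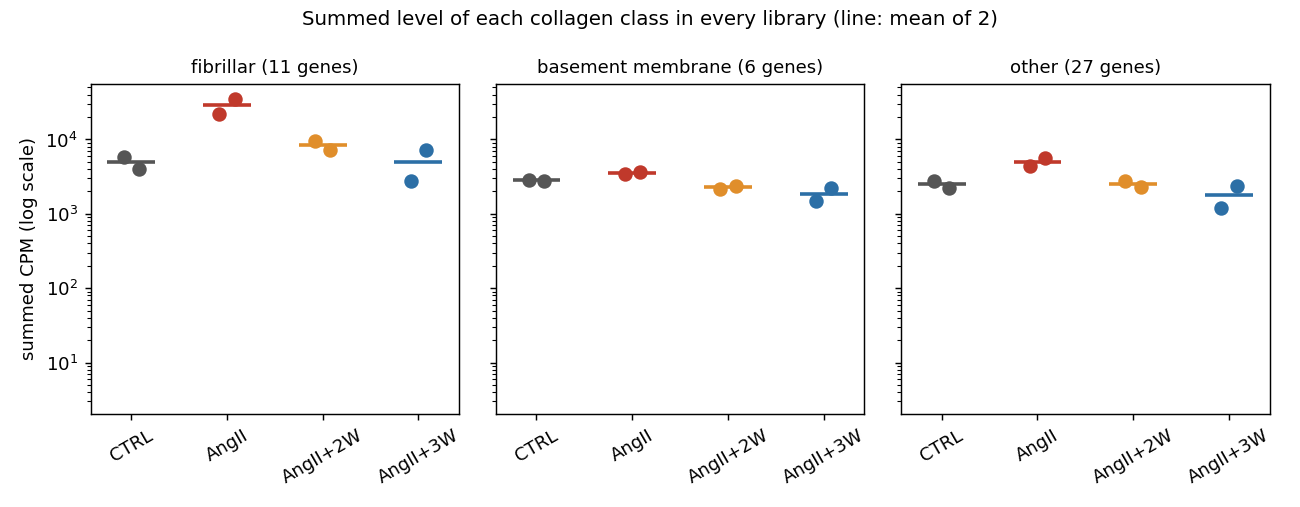
Summed CPM (vertical axis, log scale) of the fibrillar, basement membrane and other collagen genes in each library (points), with the mean of each group (lines). The AngII points are the highest in each panel, and the AngII+3W points are spread most.

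Ratios between chains of a type, as counts per kilobase of the longest annotated transcript within each library, are given next, without a test. Col1a1 over Col1a2 was 0.696 and 0.691 (CTRL), 1.22 and 1.26 (AngII), 0.88 and 0.917 (AngII+2W) and 0.785 and 0.885 (AngII+3W), so that both AngII libraries lay above the rest. Col4a6 over Col4a5 was 0.742 and 0.79 (CTRL), 0.393 and 0.382 (AngII), 0.627 and 0.65 (AngII+2W) and 0.772 and 0.769 (AngII+3W), lowest in AngII, and Col6a3 over Col6a1 was 0.493 and 0.482 (CTRL), 0.847 and 0.712 (AngII), 0.515 and 0.55 (AngII+2W) and 0.557 and 0.503 (AngII+3W), highest in AngII. Col4a1 over Col4a2 was 1.56 and 1.5 (CTRL), 1.55 and 1.49 (AngII), 1.48 and 1.48 (AngII+2W) and 1.37 and 1.42 (AngII+3W), a narrow range. The ratios themselves depend on the transcript length used, since with the median length Col1a1 over Col1a2 becomes 3.65 in CTRL and 6.54 in AngII, but the change between groups is the same by construction.

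**Figure D4:**
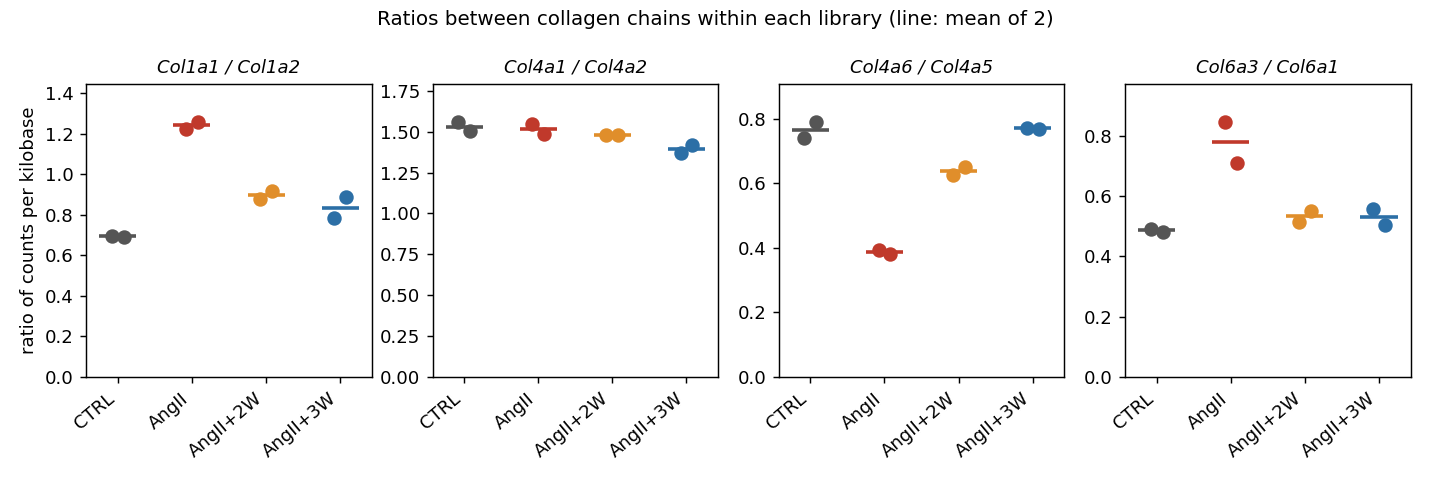
Ratio of counts per kilobase (vertical axis) between 2 chains in each library (points), with the mean of each group (lines), for Col1a1 to Col1a2, Col4a1 to Col4a2, Col4a6 to Col4a5 and Col6a3 to Col6a1. AngII stands apart from the other groups in all but Col4a1 to Col4a2.

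After the end of the infusion, no collagen gene passed the threshold against CTRL by edgeR. In AngII+2W, 0 of 39 collagen genes were called by edgeR, as were 0.00% of all genes tested. DESeq2 called 4 collagen genes (Col11a1, Col28a1, Col6a5 and Col8a1), beside 359 over all genes. At an unadjusted p below 0.05 by edgeR, 4 collagen genes were higher and 2 lower, beside 777 higher and 1061 lower of all 17182 tested. The log2 fold changes of these 6 genes were 1.23 (FDR 0.174) for Col28a1, 1.31 (FDR 0.291) for Col8a1, 1.80 (FDR 0.311) for Col6a5, 1.68 (FDR 0.357) for Col11a1, -1.05 (FDR 0.291) for Col19a1 and -0.80 (FDR 0.428) for Col4a6. The class medians were 0.39 in the fibrillar, -0.38 in the basement membrane and 0.28 in the other class, beside -0.00011 over all genes. Without either AngII+3W library 2 genes were called, Col8a1 and Col16a1.

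In AngII+3W, 0 of 39 were called by edgeR, against 0.285% of all genes tested in either direction. DESeq2 called 4 collagen genes (Col11a1, Col18a1, Col19a1 and Col4a1), beside 587 over all genes. At an unadjusted p below 0.05 by edgeR, 3 collagen genes were higher and 6 lower, beside 917 higher and 1233 lower of all 17182 tested. Higher were Col11a1 at 2.19 (FDR 0.159), Col28a1 at 0.78 (FDR 0.208) and Col8a1 at 0.85 (FDR 0.365) on the log2 scale. Lower were Col18a1 at -1.49 (FDR 0.178), Col19a1 at -1.14 (FDR 0.143), and the 4 type IV genes Col4a1 (-0.64, FDR 0.267), Col4a2 (-0.50, FDR 0.34), Col4a5 (-0.82, FDR 0.366) and Col4a6 (-0.81, FDR 0.356). The class medians were 0.026 in the fibrillar, -0.57 in the basement membrane and 0.18 in the other class, beside 0.028 over all genes. In this group replicate 1 lay below replicate 2 in 9 of 10 fibrillar and in all 6 basement membrane genes, and edgeR called 5 genes lower than CTRL without replicate 2 (Col18a1, Col19a1, Col4a5, Col4a6 and Col6a2) and 0 without replicate 1, with 8 at an unadjusted p below 0.05. The class medians were 0.38, -0.33 and 0.21 without replicate 1 and -0.48, -0.90 and -0.22 without replicate 2, in the same order. Without replicate 1 the log2 fold changes were 2.71 for Col11a1, 1.27 for Col8a1, 0.77 for Col28a1, -0.99 for Col18a1, -0.85 for Col19a1, -0.40 for Col4a1, -0.29 for Col4a2, -0.38 for Col4a5 and -0.37 for Col4a6. The smooth muscle markers were 0.299 times CTRL in AngII+3W (0.395 without replicate 1). Of these markers, 3 of 5 were called lower, against 46 of all 17182 genes tested. Their part in the type IV values was not tested.

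Compared directly with AngII, Col11a1 and Col8a1 were lower in both later groups. In AngII+2W, 2 of 39 collagen genes fell, against 0.140% of all genes tested, and 16 of 39 had a log2 fold change above 0. These 2 were Col11a1 with a log2 fold change of -4.10 (SE 0.501, FDR 0.0436) and Col8a1 with -2.67 (SE 0.35, FDR 0.0476), and the class medians were -1.53 in the fibrillar, 0.11 in the basement membrane and -0.53 in the other genes. In AngII+3W, 9 of 39 fell, against 1.32% of all genes tested, and 12 of 39 had a log2 fold change above 0. The 9 were Col8a1, Col6a3, Col12a1, Col11a1, Col5a3, Col3a1, Col8a2, Col5a2 and Col4a1, with log2 fold changes between -3.59 for Col11a1 and -1.13 for Col4a1. The median over the class was -1.87 in the fibrillar, 0.22 in the basement membrane and -0.58 in the other genes, or -1.65, 0.70 and -0.31 without AngII+3W replicate 1 and -2.52, -0.53 and -1.40 without its replicate 2. Col4a1 was the member among these that had not been called in AngII against CTRL. These comparisons share the AngII libraries with that of AngII against CTRL. The AngII+2W count was 10 without either AngII+3W library and 0 without any of the other 6 libraries. The AngII+3W count was 2 without AngII+3W replicate 1 (Col8a1 and Col16a1), 19 without its replicate 2, 0 without AngII replicate 2, 3 without AngII replicate 1 or either CTRL library, and 1 (Col8a1) without either AngII+2W library. Without AngII+3W replicate 1 the log2 fold changes of Col11a1, Col8a1, Col3a1, Col12a1, Col8a2, Col6a3, Col5a2, Col5a3 and Col4a1 were -3.06, -2.70, -2.30, -2.22, -1.90, -1.66, -1.58, -1.35 and -0.88. Without its replicate 2 those of the first 3 of these genes were -4.47, -3.77 and -3.56, and those of Col8a2 and Col5a2 were -3.11 and -2.66. With all libraries, 4 collagen genes were higher and 18 lower in AngII+2W than in AngII at an edgeR unadjusted p below 0.05. Over all 17182 genes tested these numbers were 1129 and 1452. In AngII+3W against AngII, 2 collagen genes were higher and 19 lower, beside 1274 and 1785 of all genes tested. Between AngII+3W and AngII+2W, 0 of 39 collagen genes passed by edgeR and 0 by DESeq2, beside 0.00% of all genes tested by edgeR and 228 genes by DESeq2. By edgeR 1 collagen gene, Col6a5, was lower in AngII+3W at an unadjusted p below 0.05 (-1.43, FDR 0.488), beside 725 of all 17182 genes tested. Without AngII+3W replicate 2 this count was 4.

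Genes that work on collagens were followed from lists of 5 kinds, whose counts stand beside 2.90% of all genes tested that were higher and 2.20% that were lower in AngII, and several of which rest on 1 gene. Of 18 genes for folding and modification, 1 rose in AngII: P4ha3, a prolyl hydroxylase subunit, went from 0.585 and 0.941 CPM (CTRL) to 9.66 and 12. CPM (AngII), with a log2 fold change of 3.82 (SE 0.506, FDR 0.0119). The median of this list was 0.42. P3h1 (0.57, FDR 0.0853), Ppib (0.49, FDR 0.11) and Colgalt2 (0.81, FDR 0.15) did not pass in AngII. In AngII+3W against AngII, 4 of the 18 fell (1.32% of all genes tested), P4ha3, P3h1, Ppib and the collagen chaperone Serpinh1, the last with -1.28 (SE 0.222, FDR 0.0428). Of 7 procollagen cleavage genes tested, 1 rose in AngII, the enhancer Pcolce (1.44, SE 0.327, FDR 0.0497). Of 8 fibril-binding proteoglycans, 2 rose, Lum from 37.2 and 21.4 CPM (CTRL) to 204 and 234 CPM (AngII), or 2.90 (SE 0.412, FDR 0.015) on the log2 scale, and Aspn with 1.98 (SE 0.329, FDR 0.0208). Of 9 collagen receptors, the integrin subunit Itga2 rose (1.39, SE 0.248, FDR 0.0252) and the kinase Ddr1 fell (-0.71, SE 0.133, FDR 0.0288). Of 10 basement membrane partners, 2 rose, Nid1 (1.13, SE 0.242, FDR 0.0416) and Nid2 (0.93, SE 0.207, FDR 0.0463), which bridge type IV collagen and laminin.

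Other cell type markers differed in how they moved between the groups. The 7 fibroblast markers summed to 354 to 1115 CPM over the libraries and to 1.86 times CTRL in AngII, all 7 with a log2 fold change above 0 and 1 past the threshold. The 6 macrophage markers summed to 208 to 1061 CPM and to 3.0 times CTRL, 3 past the threshold. Of all genes tested, 2.90% were called higher in AngII. The 5 endothelial markers were 1.12 times CTRL, with 0 called by edgeR and 0 at an unadjusted p below 0.05. None of the fibroblast, macrophage or endothelial markers was at 0 in any library. The 5 adipocyte markers were 1.18 and the 4 Schwann cell markers 0.62 times CTRL in AngII. In AngII+2W the smooth muscle, fibroblast, macrophage, endothelial, adipocyte and Schwann cell sums were 0.44, 1.33, 1.53, 1.14, 0.86 and 0.915 times CTRL. In AngII+3W they were 0.299, 1.03, 0.999, 1.01, 0.926 and 1.63 times CTRL. Without AngII+3W replicate 1 these sums were 0.395, 1.39, 1.26, 1.05, 0.939 and 1.69 times CTRL. Without its replicate 2 they were 0.203, 0.672, 0.735, 0.959, 0.914 and 1.58. The fibroblast and macrophage sums thus lay on opposite sides of the CTRL mean in the AngII+3W libraries. Of the Schwann cell markers, 3 of 4 were called higher in AngII+3W than in AngII, against 49 of all 17182 genes tested. The part of these cell types in the collagen results was not tested. The 5 cardiac muscle markers summed to 3726 and 1696 CPM (CTRL) and 988 and 637 CPM (AngII). They had 124 and 5.05 CPM (AngII+2W) and 4347 and 262 CPM (AngII+3W), where replicate 1 also held the skeletal muscle markers. Both CTRL libraries thus carried cardiac markers. The sums were 0.300, 0.0239 and 0.850 times CTRL in AngII, AngII+2W and AngII+3W (0.0965 without AngII+3W replicate 1). The part of the cardiac muscle markers in the collagen results was not tested.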

How the data were processed

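Per the study's methods, the authors ran Salmon on Ensembl cDNA and used tximeta to import the estimates at gene level, and the deposited table holds these estimated counts per gene as whole numbers, not normalized. RNA was ribosome-depleted, and an extract pooled 2 mice. The build named in the submitters' processing notes is GRCm38.p6. All 8 columns of the table were matched to a labelled sample.

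Collagen members and gene lists were chosen with earlier results of these data known. The test across genes was that of edgeR 4.0.16 (R 4.3.3; filterByExpr, TMM, quasi-likelihood F test in its older form, 1 fit over 8 libraries with 4 residual degrees of freedom, two-sided, Benjamini-Hochberg over 17182 genes, FDR below 0.05). The SE is the absolute log2 fold change divided by the square root of F. The common biological coefficient of variation was 0.202. The 6 comparisons were each group with CTRL and the infused groups with each other. P-values measure the spread between these pooled libraries. The length offsets that tximeta can supply were not applied. All 44 collagen identifiers were found in the GENCODE M21 annotation (GRCm38), which gave positions and lengths, and near-identical stretches were searched among its transcripts with BLAST. Values in every library are given for the called members with the smallest p (up to 12), the 3 members of each class with the highest mean CPM and the members called between AngII and a later group, and for each companion list up to 4 genes with the smallest p are named. Col4a6, Col6a5 and Col15a1 are given in every library beyond this rule, and Serpinh1 was chosen after its values were seen. Any collagen member could be named. The alternatives were DESeq2's size factors, library totals, every gene with at least 1 count, at least 10 counts in every library, DESeq2 1.42.0, only the 2 groups compared, a replicate block, leaving out each library, and the median transcript length for ratios. Scripts were tested on simulated data.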

Additional observations from a re-analysis of the deposited data

Results flagged for a closer look

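The difference between infused groups passed the test in the direct comparison for the following genes, each lower in the later group (edgeR, log2 fold change). In AngII+2W against AngII these were Col11a1 (-4.10, FDR 0.0436) and Col8a1 (-2.67, FDR 0.0476). In AngII+3W against AngII these were Col8a1 (-3.13, FDR 0.0206), Col6a3 (-2.0, FDR 0.0223), Col12a1 (-2.51, FDR 0.0227), Col11a1 (-3.59, FDR 0.025), Col5a3 (-1.51, FDR 0.0304), Col3a1 (-2.78, FDR 0.0383), Col8a2 (-2.37, FDR 0.0428), Col5a2 (-2.01, FDR 0.0446) and Col4a1 (-1.13, FDR 0.0475). As CTRL is common to each contrast, the test of the difference in effect is the direct comparison itself.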

How the results depend on the processing

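In AngII against CTRL the number of collagen genes called was 10 to 18 under the 7 alternatives that keep all libraries of both groups (10 with library totals, 18 with DESeq2), and 0 to 20 when 1 library was left out. Against CTRL, DESeq2 called 4 collagen genes in AngII+2W (359 over all genes) and 4 in AngII+3W (587 over all genes), where edgeR called 0 collagen genes. The AngII+2W against AngII count of 2 became 0 with library totals. At an edgeR unadjusted p below 0.05, 19 collagen genes then remained, beside 2381 of all genes tested. The count was 6 with every gene of at least 1 count and 15 with DESeq2. It was 18 with only the 2 groups compared and 1 (Col5a3) with the replicate block. The AngII+3W against AngII count of 9 became 6 with library totals, 6 with the replicate block (5 of the 9 and Col4a2, without Col3a1, Col4a1, Col5a2 and Col8a2), 13 with at least 10 counts in every library, 16 with every gene of at least 1 count, 18 with DESeq2 and 0 with only the 2 groups compared (20 at an unadjusted p below 0.05). The cause was not tested. With 1 library left out, counts ranged from 0 to 2 in AngII+2W and 0 to 5 in AngII+3W against CTRL, 0 to 10 in AngII+2W and 0 to 19 in AngII+3W against AngII, and 0 to 4 between the later groups. The lone sample of a group is then assumed to vary like the others.

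Class medians (log2) ranged, with 1 library left out, from 1.37 to 2.29 in the fibrillar, -0.91 to -0.085 in the basement membrane and 0.52 to 0.96 in the other class in AngII, from 0.31 to 0.59, -0.77 to -0.27 and 0.22 to 0.30 in AngII+2W, and from -0.48 to 0.38, -0.90 to -0.33 and -0.22 to 0.22 in AngII+3W. No call turned its direction under the alternatives run. With the replicate block 11 collagen genes were called in AngII against CTRL, and Col1a1, Col5a2 and Col6a5 were not among them. Same-numbered libraries hold different mice. The labels do not say that a number marks a shared batch. Deviations of same-numbered libraries correlated at 0.0213 to 0.373 between groups over 15155 genes, above 0.1 in 4 of 6 pairs of groups (0.373 for AngII with AngII+3W), so that pairing was not taken as given. A shared batch was not tested. A gene at or under 3 counts is not resolved at this depth.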
